A study of Rattus norvegicus with 12 samples.

Results

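Brush border peptidases and peptide transporters were followed in rat colon under a normal protein and a high protein diet. The set was taken by gene name from the non-control spots of the arrays: Slc15a1, Slc6a19, Anpep, Enpep, Dpp4, Mep1a, Mep1b and Vil1. It holds 8 of the 19394 gene names on the array and 11 of its 30367 probes, 3 of them for Slc15a1 and 2 for Dpp4. The animals were male Wistar rats of 180 to 200 g that ate one of the diets for 6 weeks, with 6 arrays per diet. Total RNA of colonic epithelium was labelled with Cy3 and read on 1-colour Agilent arrays. The arrays are called NP1 to NP6 (normal protein) and HP1 to HP6 (high protein) by the replicate numbers of the labels. The labels do not say that the samples of a diet came from separate animals. The p-values thus measure the spread between these samples, which need not be that between animals.

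Absorptive epithelial cells carry on their apical side a brush border of microvilli, where membrane peptidases trim peptides from the diet and the gut lumen. The products are taken up by carriers as di- and tripeptides or as free amino acids. This machinery is best known from the small intestine, and some of its members, the meprins among them, are also made in colon. Along the colon, the homeobox transcription factor genes Hoxb13 and Hoxb6 differ with position, Hoxb13 being a marker of the distal end.

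The stretches of genome just upstream of Mep1b, Dpp4 and Mep1a are shown first, because the first pair of these genes passed the test on the Hoxb13 and Hoxb6 levels of the arrays and the third, which encodes the partner subunit of the Mep1b product, did not. Each is the 250 bases before the RefSeq transcription start in assembly GRCr8, written 5′ to 3′ along the gene. They lie at chr18:12640791-12641040 on the plus strand for Mep1b, at chr3:67452423-67452672 on the minus strand for Dpp4 and at chr9:24971651-24971900 on the plus strand for Mep1a. Capitals mark matches, on either strand, to 4 short letter strings searched for: CAATAAA (a core of posterior Hox sites), TTTATG (caudal-type factors), GTTAAT (an arm of the HNF1 site) and AGATAA (zinc-finger factors of the GATA family).
Mep1b: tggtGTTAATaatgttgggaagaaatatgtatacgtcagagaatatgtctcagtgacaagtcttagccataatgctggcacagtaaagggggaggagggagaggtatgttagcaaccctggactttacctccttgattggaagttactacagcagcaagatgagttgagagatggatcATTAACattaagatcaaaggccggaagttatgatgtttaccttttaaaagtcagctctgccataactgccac
Dpp4: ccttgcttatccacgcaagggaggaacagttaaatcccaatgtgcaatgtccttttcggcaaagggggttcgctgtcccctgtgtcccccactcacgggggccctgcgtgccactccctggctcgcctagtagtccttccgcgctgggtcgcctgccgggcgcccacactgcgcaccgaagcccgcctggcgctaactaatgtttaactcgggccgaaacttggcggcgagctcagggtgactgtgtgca
Mep1a: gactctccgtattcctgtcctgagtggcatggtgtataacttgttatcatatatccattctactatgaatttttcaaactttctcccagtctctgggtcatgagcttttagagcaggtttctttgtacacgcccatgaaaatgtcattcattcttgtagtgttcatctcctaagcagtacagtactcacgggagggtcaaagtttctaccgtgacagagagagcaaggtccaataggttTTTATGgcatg

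Mep1b held GTTAAT at 2 places, on the plus strand starting 246 bases before the start and on the minus strand starting 72 bases before it. Mep1a held TTTATG on the plus strand, 11 bases before its start. The Dpp4 window held none of the 4 strings, which says only that those letters are not in these 250 bases. Over the windows of all 8 members, GTTAAT was found in 3 (Slc6a19, Anpep, Mep1b), AGATAA in 2 (Slc15a1, Slc6a19), TTTATG in 1 and CAATAAA in 0. Of 33469 such windows in the RefSeq table, 6.5% held GTTAAT, 10.3% AGATAA, 11.4% TTTATG and 4.1% CAATAAA, on either strand, and no 2 matches in a member's window overlapped. The windows of Slc15a1 and Anpep lie 42.0 and 24.3 kb inside their genes, at a start that need not be the one used in colon.

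The share of gene spots flagged good by the scanner software ran from 42.7% to 55.9% over the arrays. The 75th percentile of signal above the negative controls ran from 130 to 385 intensity units, and both were lowest in NP3. All 12 colonocyte markers examined, such as Car1 and Krt20, were measured. The tissue was labelled as epithelium, yet 9 of 9 smooth muscle markers on the array and 6 of 6 fibroblast markers were measured as well. Of 10 small-intestinal enterocyte markers 3 passed the filter (Fabp2, Apoa1, Rbp2). Alpi and Fabp6 were flagged good on 5 and 4 of 12 arrays, and Si, Lct, Apob, Apoa4 and Slc5a1 on 0. Hoxb13 and Hoxb6 divided the arrays within both diets. The Hoxb13 level was 11.996 to 12.56 (normalized log2 intensity) on HP2, HP5, HP6, NP1, HP1 and NP2, and 9.32, 8.26, 7.49, 6.18, 6.12 and 5.83 on NP5, NP3, HP4, NP6, HP3 and NP4. Hoxb6 was 10.82 to 10.95 on HP4, NP6 and HP3, all of the lower Hoxb13 set, and 6.51 to 7.49 on the other 9 arrays. Of the 3 arrays low in both genes, 3 were normal protein and 0 high protein, and each of the 3 slides held arrays from the higher and the lower Hoxb13 set.

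Of the 8 members, 6 were above background in colon, by the rule that a probe was flagged good on at least 6 of 12 arrays whatever the diet: Mep1a and Vil1 on 12 arrays, Mep1b, Dpp4 and Enpep on 11, and Anpep on 7. The Mep1b spot that was not flagged good, on HP4, was marked as not found although it read 835 intensity units above the negative controls. Anpep was near the limit, with 14 to 53 units above the negative controls, and was flagged good on 5 high protein and 2 normal protein arrays. Neither transporter, Slc15a1 nor Slc6a19, met the rule, so those genes entered no main test across genes, only an alternative without the filter. With the brighter of the array's 153 negative control spots as the limit (their 95th percentile), 7 members were above background on at least 6 arrays, Slc15a1 being added.

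Slc15a1 encodes PepT1, the proton-coupled carrier of di- and tripeptides. Its probe for transcript variant 1 read 133, 83, 57, 19, 24 and 36 intensity units above the negative controls on HP2, HP5, HP6, NP1, HP1 and NP2, the arrays of higher Hoxb13. On NP5, NP3, HP4, NP6, HP3 and NP4 it read 4, -1, -2, 3, 0 and -4 units. The spot was thus flagged good on 3 arrays, all high protein and all with Hoxb13 above 12, and not well above background on any of the 6 normal protein arrays. Every array of the higher Hoxb13 set read above every array of the lower set, though on NP1, HP1 and NP2 the spot was not flagged good. Of the 10450 genes in the Hoxb13 fit, 1.88% had normalized levels split in this way, a share that leaves out Slc15a1. The share among probes as dim as this was not counted. The 2 probes for transcript variant 2 were flagged good on 0 of 12 arrays, at -7 to 34 units.

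**Figure D1:**
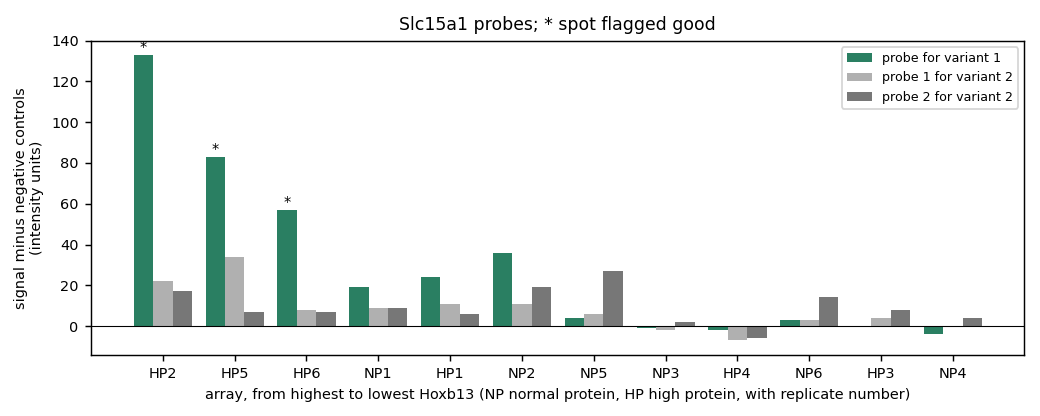
Signal of the 3 Slc15a1 probes minus the array's negative controls (intensity units, bars from 0), with the 12 arrays ordered from the highest to the lowest Hoxb13 level; a star marks a spot flagged good. The variant 1 probe read 133, 83 and 57 units on HP2, HP5 and HP6, and at most 4 units on the 6 arrays of lower Hoxb13.

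Between the diets Slc15a1 can be given only as a bound. Its normalized log2 level averaged 6.596 ± 0.72 (SD, n = 6) under high protein and 6.02 ± 0.29 under normal protein. Against the lowest level measurable on the normal protein arrays, a mean of 6.41, the high protein mean was at least 1.14-fold higher, an average that includes 3 high protein arrays on which the spot was not flagged good. This bound rests on HP2: without it the high protein mean was 6.38, below 6.41, so that no fold can be given. The ranges overlapped, at 5.76 to 7.65 under high and 5.73 to 6.53 under normal protein. An alternative fit without the filter on dim probes took values at background as if measured. There limma gave a diet difference of 0.57 ± 0.29 (log2, SE, adjusted p = 0.85 over 21913 genes). The slope on Hoxb13 was 0.15 ± 0.04 per log2 unit (limma adjusted p = 0.087), and neither value passed the threshold of 0.05.

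Slc6a19 encodes B0AT1, the sodium-coupled carrier of neutral amino acids. Its single probe read -6 to 17 units above the negative controls, was flagged good on 0 of 12 arrays and exceeded the 95th percentile of the negative controls on 2. No level or fold is given for it. Cltrn, which encodes its partner collectrin and is named here after its values were seen, was also flagged good on 0 of 12 arrays.

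Mep1b encodes the membrane-bound beta subunit of meprin, an astacin-family metalloprotease that cuts inside peptides and proteins, mucin 2 among them. It varied 7.67-fold between arrays. Its level was 11.89, 11.94, 11.65, 11.30, 11.62 and 11.49 on HP2, HP5, HP6, NP1, HP1 and NP2, and 10.99, 10.95, 9.85, 9.002, 9.96 and 10.91 on NP5, NP3, HP4, NP6, HP3 and NP4. All arrays of higher Hoxb13 lay above all others. The 3 arrays low in both Hox genes came next, at 10.91 to 10.99, and the 3 of high Hoxb6 were lowest, at 9.002 to 9.96. In RNA from bulk tissue, fewer cells of a type and less RNA per cell cannot be told apart.

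Dpp4 encodes dipeptidyl peptidase 4, a serine peptidase that removes dipeptides after proline or alanine and inactivates incretin hormones. Its brighter probe varied 6.40-fold, with levels of 8.42, 8.53, 8.98, 8.93, 9.14 and 8.60 on HP2, HP5, HP6, NP1, HP1 and NP2 and of 7.62, 7.52, 7.10, 6.47, 7.28 and 7.37 on NP5, NP3, HP4, NP6, HP3 and NP4. The arrays fell in the same 3 bands as for Mep1b, at 8.42 to 9.14, 7.37 to 7.62 and 6.47 to 7.28, without overlap. For both genes the middle band was NP5, NP3 and NP4, all normal protein, so it cannot be told apart from diet. The share of all genes with these 3 bands was not counted. The other Dpp4 probe was flagged good on 4 arrays, NP1, NP2, HP1 and HP6, all of higher Hoxb13.

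In a limma fit of each of 10450 genes on the Hoxb13 level of the array with diet in the model, 3.96% of genes had an adjusted p under 0.05 (237 rising and 177 falling with Hoxb13). Of the 6 tested members, 2 rose, Mep1b and Dpp4. Of all genes tested, 2.27% rose and 1.69% fell, and with the arrays scaled to their medians the split of calls was 259 rising to 94 falling. Dpp4 rose by 0.28 ± 0.04 per log2 unit of Hoxb13 (SE, 12 arrays, limma adjusted p = 0.0015), and Mep1b rose by 0.28 ± 0.05 (adjusted p = 0.012). For 1.88% of genes, all 6 arrays of higher Hoxb13 lay above the other 6, as they did for these members, and for 1.68% all 6 lay below, as they did for 0 members. The Hoxb13 levels fall in separate clusters, so no correlation over the 12 arrays is given. Within a slide, over 4 arrays each and as a description, the Mep1b slope was 0.18, 0.43 and 0.20 on slides 1, 2 and 3, and the Dpp4 slope 0.31, 0.40 and 0.20.

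Both Hoxb13 calls were lost in several settings. With Hoxb6 also in the model the Dpp4 slope was 0.21 (limma adjusted p = 0.26) and the Mep1b slope 0.09 (adjusted p = 0.59). Hoxb6 itself fell by 0.48 per log2 unit of Hoxb13 (adjusted p = 0.046). In the series value table, with its IDs moved by 1 row, the slopes were 0.23 (adjusted p = 0.091) and 0.17 (adjusted p = 0.13), and with plain subtraction of the background 0.24 (adjusted p = 0.052) and 0.18 (adjusted p = 0.11). Without HP3 the Mep1b slope was 0.28 with an adjusted p of 0.060.

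On the Hoxb6 level, 4.75% of genes passed (204 rising, 292 falling; 67 and 180 with the arrays scaled to their medians). Mep1b and Dpp4 fell and 0 members rose, against 2.79% and 1.95% of all genes tested. Mep1b fell by 0.51 ± 0.04 per log2 unit of Hoxb6 (SE, 12 arrays, limma adjusted p = 6.86e-05), the third smallest p of 10450 genes. Mep1b kept its call in every alternative in which it was tested, at limma adjusted p from 6.48e-05 to 0.015. Unlike the Hoxb13 slope, the Hoxb6 slope was not fitted with the other Hox gene in the model or with replicate number as a block. Dpp4 fell by 0.41 ± 0.08 (adjusted p = 0.019), a call lost with slide as a block (0.11), without diet in the model (0.11), without NP6 (0.085) and without HP3 (0.059). High Hoxb6 was found on 3 arrays, of which slide 1 held none, so this slope rests on them. On slides 2 and 3 the slope of Mep1b was -0.50 and -0.34 and that of Dpp4 -0.40 and -0.21. On slide 1, where Hoxb6 reached only 7.33, the slopes had the other sign, 1.004 for Mep1b and 1.90 for Dpp4.

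**Figure D2:**
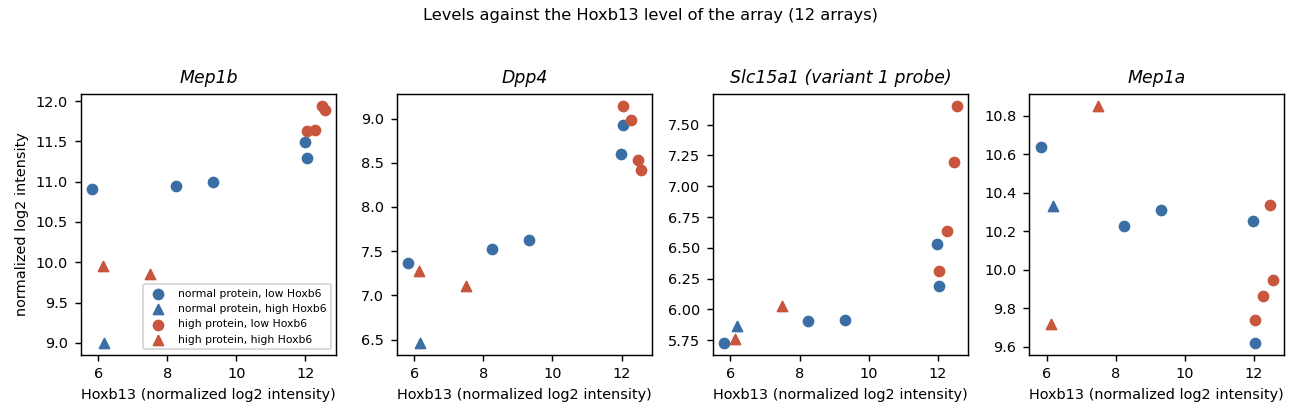
Normalized log2 intensity of Mep1b, Dpp4, the Slc15a1 variant 1 probe and Mep1a (each panel with its own vertical scale) against the Hoxb13 level of the same array (normalized log2 intensity), 1 point per array; colour gives the diet and triangles the 3 arrays of high Hoxb6. Mep1b and Dpp4 lay at 11.30 to 11.94 and 8.42 to 9.14 on the 6 arrays of higher Hoxb13, above all others, while the Mep1a levels of the 2 sets of arrays overlapped.

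Mep1a encodes the alpha subunit of meprin, which is largely secreted and is held at the membrane by pairing with the beta subunit. Its level was 9.95, 10.34, 9.86, 9.62, 9.74 and 10.25 on HP2, HP5, HP6, NP1, HP1 and NP2, and 10.31, 10.22, 10.85, 10.33, 9.72 and 10.64 on NP5, NP3, HP4, NP6, HP3 and NP4. The arrays of higher and lower Hoxb13 overlapped, at 9.62 to 10.34 and 9.72 to 10.85. The slope on Hoxb13 was -0.06 ± 0.04 (SE, limma adjusted p = 0.47) and that on Hoxb6 0.06 (adjusted p = 0.66). The interval of the Hoxb13 slope, -0.14 to 0.02, did not reach that of Mep1b, 0.17 to 0.39. The difference between the slopes of the subunits was not itself tested.

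The other tested members had no slope past the threshold. Enpep encodes aminopeptidase A, which removes acidic residues from the amino end of peptides and acts on angiotensin. It lay at 6.53 to 7.03 on the arrays of higher Hoxb13 and 6.78 to 7.36 on the others, with a Hoxb13 slope of -0.05 ± 0.02 (limma adjusted p = 0.30). Anpep, aminopeptidase N, which removes neutral residues, lay at 6.31 to 6.71 and 6.12 to 6.70, with a slope of -0.01 ± 0.02 (adjusted p = 0.86). Vil1, villin, which bundles the actin core of the microvilli and served as the structural member of the set, lay at 8.91 to 9.75 and 8.67 to 10.14, with a slope of 0.01 ± 0.04 (adjusted p = 0.94). On Hoxb6 their slopes were 0.07, 0.02 and -0.04, with adjusted p of 0.30, 0.79 and 0.77.

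Within each set of 6 arrays, relations of the 6 tested members with Hoxb13 were computed, 12 in all, and none passed after Benjamini-Hochberg adjustment. Enpep followed Hoxb13 most closely over the 6 arrays of higher Hoxb13 (Pearson r = 0.94, exact permutation p = 0.0056, adjusted 0.067; Spearman rho = 0.89, exact p = 0.033). Without the 2 arrays farthest from the median r was 0.98. Enpep was dim on these arrays, at 38 to 76 units above the negative controls and levels of 6.53 to 7.03. The lowest measurable level ran from 6.20 to 6.80 over the 12 arrays, and Hoxb13 spanned only 11.996 to 12.56 in this set. For Mep1b over the same arrays r was 0.87 (exact permutation p = 0.032, adjusted 0.19; rho = 0.77, exact p = 0.10), and 0.47 without the 2 farthest. For Dpp4 over these arrays r was -0.66 (exact permutation p = 0.16, adjusted 0.39), opposite in sign to its slope over all 12 arrays. Without the 2 farthest it was 0.33. Over the other 6 arrays r was 0.57 for Dpp4 and 0.51 for Mep1b (exact permutation, adjusted p = 0.475 for each).

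Between the diets, 0% of 10451 genes passed in limma, and 0 of the 6 tested members did. Without adjustment 694 genes (6.64%) had a p under 0.05, and no member was among them. Levels that do not overlap between the diets were found for 0.383% of genes and for none of the 8 members. Under high protein Mep1b ran from 9.85 over a median of 11.64 to 11.94, and under normal protein from 9.002 over 10.97 to 11.49. Its means were 11.15 ± 0.97 and 10.77 ± 0.90 (SD, n = 6 each), a difference of 0.38 ± 0.48 (log2, SE; limma adjusted p = 0.86; two-sided exact permutation p = 0.51). Dpp4 ran from 7.10 over 8.47 to 9.14 and from 6.47 over 7.57 to 8.93, with means of 8.24 ± 0.86 and 7.75 ± 0.89 and a difference of 0.49 ± 0.45 (limma adjusted p = 0.81; exact permutation p = 0.37). The high protein arrays held 4 of the 6 samples of higher Hoxb13.

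Mep1a averaged 10.08 ± 0.44 under high and 10.23 ± 0.33 under normal protein, a difference of -0.15 ± 0.20 (limma adjusted p = 0.87), which was 0.02 with the arrays scaled to their medians. Vil1 averaged 9.19 ± 0.44 and 9.54 ± 0.37, a difference of -0.35 ± 0.21 (adjusted p = 0.74; exact permutation p = 0.17). Enpep averaged 6.84 ± 0.14 and 6.88 ± 0.30, a difference of -0.05 ± 0.13 (adjusted p = 0.94). Anpep averaged 6.604 ± 0.12 and 6.43 ± 0.19, a difference of 0.17 ± 0.10 (adjusted p = 0.73; exact permutation p = 0.093), the smallest exact p among the members where 0.0022 is the smallest that 6 against 6 allows. None of these differences passed the adjusted threshold or the exact test, and their 95% intervals still include sizeable changes: -0.66 to 1.41 for Mep1b, -0.48 to 1.46 for Dpp4, -0.60 to 0.29 for Mep1a and -0.80 to 0.11 for Vil1.

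The slides differed in the sign of some differences. On slides 1, 2 and 3, each with 2 arrays per diet, the high minus normal protein difference was 0.63, 0.75 and -0.26 for Mep1b, 0.56, 1.0002 and -0.08 for Dpp4, and -0.85, 0.45 and -0.63 for Vil1. None passed after adjustment within a slide.

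**Figure D3:**
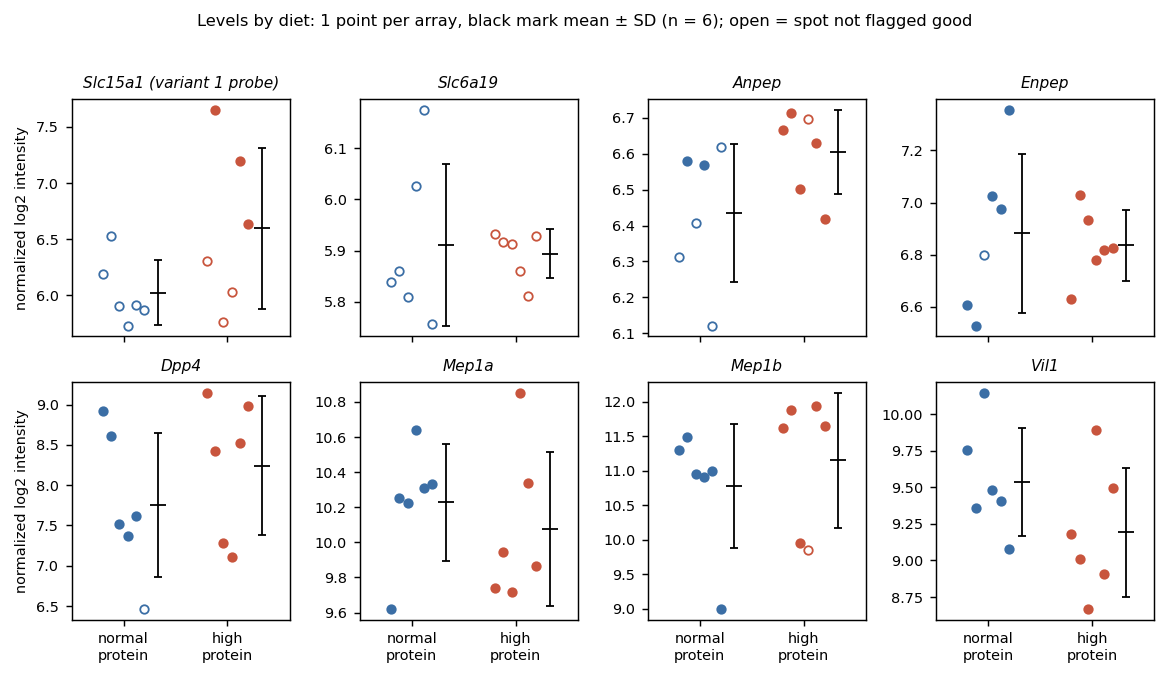
Normalized log2 intensity of the 8 members by diet, 1 point per array, with the mean and SD of 6 arrays beside each group in black; open points are spots not flagged good, and each panel has its own scale. The diets overlap in every panel; Mep1b averaged 11.15 under high and 10.77 under normal protein.

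With the Hoxb13 and Hoxb6 levels of each array in the model, limma again called 0 of 10449 genes by diet (0%). Mep1b was then higher under high protein by 0.59 ± 0.13 (log2, SE; 95% interval 0.30 to 0.89), with an unadjusted p of 0.00097, the sixth smallest of all genes, and an adjusted p of 0.75. Leaving out each array in turn gave 0.47 to 0.69. Dpp4 differed by 0.30 ± 0.23 (adjusted p = 0.84), Vil1 by -0.25 ± 0.28 (0.88), Anpep by 0.16 ± 0.13 (0.85), and Enpep and Mep1a by -0.01 each (0.99 and 0.997). The 3 arrays low in both Hox genes were all normal protein, so this fit compares the diets where they share Hox levels only in part.

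**Figure D4:**
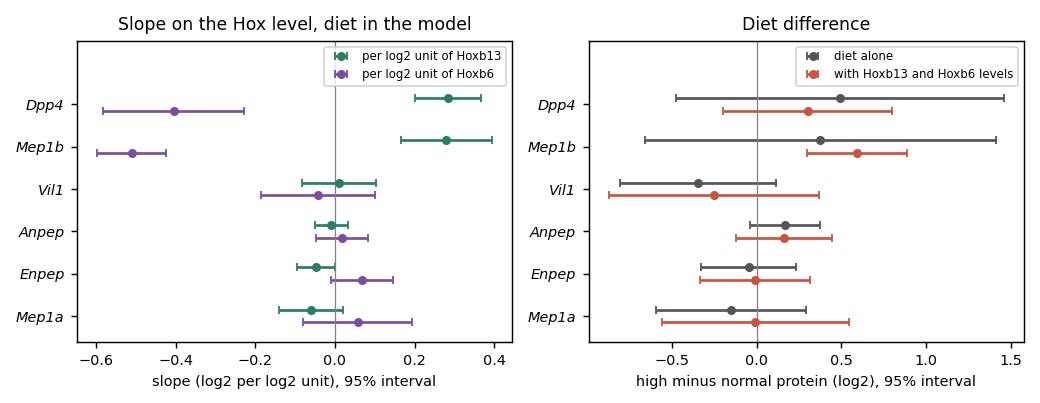
Fitted values of the 6 tested members with 95% intervals: left, slopes on Hoxb13 and on Hoxb6 (log2 per log2 unit, diet in the model); right, high minus normal protein differences (log2) from diet alone and with both Hox levels in the model. The slopes of Dpp4 and Mep1b lie away from 0 on both Hox genes, and the Mep1b diet difference is 0.38 alone and 0.59 with the Hox levels.

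Of the other brush border and surface peptidases 9 of 20 were tested. By diet 0 passed, with a median difference of 0.04 against 0.01 over all tested genes. Dpep1, a dipeptidase anchored at the cell surface, had the smallest p of the list: 10.41 ± 1.05 under high and 11.98 ± 0.61 under normal protein (SD, n = 6 each), a difference of -1.56 ± 0.44 (limma adjusted p = 0.68), with a Hoxb13 slope of -0.22 (adjusted p = 0.070). The diets overlapped, at 9.17 to 12.13 and 11.16 to 12.76. Ace, the angiotensin-converting enzyme, was the only 1 of the 9 to change with Hoxb13, where 3.96% of all genes tested did. It fell by 0.12 ± 0.03 per log2 unit (adjusted p = 0.022) and rose with Hoxb6 by 0.17 (adjusted p = 0.048), opposite in sign to Dpp4 and Mep1b. Naaladl1, an aminopeptidase, differed by -0.39 ± 0.18 between diets (adjusted p = 0.73). Ggt1, Folh1, Xpnpep2 and Tmprss15, the enteropeptidase that activates trypsin, were named after their values were seen and were flagged good on 0 of 12 arrays.

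Of the peptidases inside cells 21 of 24 were tested, and 0 passed by diet. Lta4h, leukotriene A4 hydrolase and also an aminopeptidase, rose with Hoxb13 by 0.13 ± 0.02 (limma adjusted p = 0.0012) and fell with Hoxb6 by 0.17 (adjusted p = 0.037). It was the only gene of the list to pass on either, where 3.96% of all genes tested passed on Hoxb13 and 4.75% on Hoxb6. Cndp1 and Dpp8 differed between the diets by -0.23 ± 0.09 and 0.23 ± 0.10 (adjusted p = 0.72 and 0.73).

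Among carriers of peptides and amino acids and their partners 11 of 23 were tested and 0 passed by diet. Of all genes tested 3.96% passed on Hoxb13 and 4.75% on Hoxb6, and of these 11 only Slc1a1 passed, on both. It encodes the glutamate and aspartate carrier EAAT3. Its level was 7.02 to 7.49 on the arrays of higher Hoxb13 and 6.31 to 6.92 on the others, a rise of 0.08 ± 0.02 per log2 unit (limma adjusted p = 0.045), and it fell with Hoxb6 by 0.14 (adjusted p = 0.0079). Between diets it averaged 7.14 ± 0.29 and 6.81 ± 0.27, a difference of 0.33 ± 0.15 (adjusted p = 0.73). Slc15a2, a second peptide carrier of the cell surface, named after its values were seen, was flagged good on 0 of 12 arrays. Slc15a3, a peptide carrier of endosomes and lysosomes, was flagged good on 12, with a diet difference of -0.01 ± 0.11 (adjusted p = 0.99).

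Of the genes of microvillus structure 22 of 26 were tested and 0 passed by diet, with a median difference of -0.10. With Hoxb13, 1 of the 22 rose and 1 fell, against 2.27% and 1.69% of all genes tested. Capza1, an actin capping subunit, rose by 0.08 ± 0.02 (limma adjusted p = 0.019). Tmigd1, an adhesion protein of the brush border, fell by 0.33 ± 0.08 (adjusted p = 0.035) and rose with Hoxb6 by 0.54 (adjusted p = 0.023). It averaged 8.64 ± 1.38 under high and 9.74 ± 0.96 under normal protein, a difference of -1.11 ± 0.61 (adjusted p = 0.73). Pls3 and Actb, with smaller unadjusted p by diet, differed by -0.23 ± 0.09 and -0.28 ± 0.13 (limma adjusted p = 0.70 and 0.73). With Hoxb6 a further gene, Baiap2l1, which helps to form actin bundles at the membrane, fell by 0.15 (adjusted p = 0.035), beside Capza1, which fell by 0.12 (adjusted p = 0.034). Of all genes tested, 2.79% fell and 1.95% rose with Hoxb6. Of the regulators and a substrate of the meprins, Muc2, the main gel-forming mucin of the colon, fell with Hoxb13 by 0.20 ± 0.05 (adjusted p = 0.037), while Ahsg, fetuin A, a circulating protease inhibitor, had a slope of -0.04 ± 0.02 (adjusted p = 0.43).

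Of 9 other small-intestinal hydrolases and receptors, 2 were tested, Naaladl1 and Amn, and neither passed in any fit. Markers of other cell types were set beside the Hoxb13 bands of Mep1b and Dpp4. The mean level of the 12 colonocyte markers was 11.48 to 11.96 on the arrays of higher Hoxb13 and 11.25 to 12.18 on the others, that of the 3 tested small-intestinal enterocyte markers 7.89 to 8.42 and 8.05 to 9.75, that of the 7 goblet cell markers 10.85 to 11.92 and 11.08 to 12.48, and that of the 9 smooth muscle markers 10.90 to 11.29 and 10.28 to 11.56. The 2 T cell markers tested of 7, Cd3d and Cd3g, averaged 7.09 to 8.01 and 7.39 to 7.98, while Cd3e, Cd2, Cd8a and Lck were flagged good on 0 of 12 arrays. The ranges of all these lists overlapped between the sets of arrays, but single markers, named after their values were seen, passed the test in both directions. With Hoxb13 the colonocyte gene Slc5a8 rose by 0.16 per log2 unit (limma adjusted p = 0.021), while Car1, also of colonocytes, fell by 0.50 (0.0098), Fabp2, of enterocytes, by 0.36 (0.019) and Muc2, of goblet cells, by 0.20. With Hoxb6, Aqp8 and Slc5a8 (colonocytes) fell by 0.57 and 0.25, Tff3 (goblet cells) by 0.41 and Des (smooth muscle) by 0.26, while Spink4 (goblet cells) rose by 0.91 and Kdr (endothelium) by 0.23 (limma adjusted p from 0.016 to 0.044). The part of cell composition in the Mep1b and Dpp4 slopes was not tested.

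By Pearson correlation over the 12 arrays, given as a description of genes that share libraries and Hox levels, the genes most like Dpp4 were Cd177 (r = 0.98), Nxpe4 (0.98) and Tor4a (0.97), and those most like Mep1b were Foxa2 (0.97), Pkp1 (0.97) and Tada1 (0.96). Of these, all but Tada1 also rose with Hoxb13 (limma adjusted p from 0.0012 to 0.0016; Tada1 0.059). They were chosen on the same arrays for likeness to members that rose, so their slopes are not a separate result. Those most like Mep1a were Cox17 (0.93), Trak2 (0.91) and Yipf4 (0.89), and those most like Vil1 were Prr13 (0.90), Nus1 (0.89) and Ldha (0.88). For Anpep they were Tnni2 (0.86), Dhx38 (0.86) and Bhmt (0.85), and for Enpep Psmc5 (0.86), Nsfl1c (0.85) and Gpr180 (0.84). None of the 12 genes most like the latter 4 members had a Hoxb13 slope past the threshold, which likewise goes with how they were chosen.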

How the data were processed

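Cy3 arrays of 6 normal and 6 high protein samples were used. Per the file headers, the authors exported linear spot intensity and a flag score (100 good, -50 not found) from GenePix Pro 6.1.0.4 with no normalization. The deposited series table is on the log2 scale, per the labels; RMA is the tool given in the submitters' processing notes. Its IDs were displaced by 1 row (correlation with the scanner values 0.006 to 0.019 as given, 0.995 to 0.997 when moved), so it served only as an alternative.

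Mean pixel and median local background were corrected with normexp (offset 50), control spots were dropped, and arrays were quantile normalized on the log2 scale. Spots of a probe were averaged, and testing required a good flag for 0.5 or more of a probe's spots on 6 or more of 12 arrays. The brightest probe stood for a gene. Names came through RefSeq accessions (18347 of 30367 probes), otherwise from the array, and 1467 tested probes without a name were left out, leaving 10451 genes. Limma 3.58.1 (R 4.3.3) gave diet differences and slopes on the Hox levels, with Benjamini-Hochberg adjustment over all tested genes and a threshold of 0.05. The diet and slope fits were checked for bias of the estimate only, with known changes added to residuals of these data after shuffling. The shuffling did not keep the relation of the residuals to the Hox levels. Precision is limited by the number of arrays.

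All members were named, with the 3 genes most correlated with each tested member. List genes given with values came from the 3 of each list with the smallest p by diet and the 3 by Hoxb13. Not all of these are given, and other genes were named after their values were seen. Members and lists were chosen with earlier results of these data known. Alternatives covered background, scaling, filter, probe choice, slide, replicate number, covariates and each array left out.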

Additional observations from a re-analysis of the deposited data

Results flagged for a closer look

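One member had a sample far from the others of its diet. The Mep1b level of normal protein replicate 6 was 9.002 (normalized log2 intensity), against 10.91 for the next lowest of the 6 normal protein arrays. The gap was 0.768 of the group's whole range, above Dixon's 95% critical value for 6 samples. This array also had the highest Hoxb6 level, 10.95, and the lowest Dpp4 level, 6.47, and its Mep1b spot was flagged good. Chance alone gives such a value in about 1 of 20 groups, and 22 groups were screened.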

How the results depend on the processing

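The diet comparison called 0 members in every setting, and 1 gene within slide 3 in place of 0. Genes called on Hoxb13 numbered 414, and 81 with plain background subtraction, 59 in the value table, 215 with slide as a block, 24 with the replicate block and 9 with Hoxb6 in the model. Members called on it numbered 2, and 0 in these settings other than the slide block, as well as 0 with a filter of good spots on all 12 arrays, which removes Dpp4 and Mep1b. Genes called on Hoxb6 numbered 496, and 247 with median scaling, 87 with slide as a block and 121 without diet in the model; members numbered 2, and 1, 1 and 0 with the slide block, without diet and with good spots on all arrays. Leaving out 1 array gave 165 to 536 genes and 1 to 2 members on Hoxb13, and 176 to 765 genes and 1 to 2 members on Hoxb6, the lowest counts being those without HP3 and the highest Hoxb6 count that without HP4.

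Several values changed sign. The diet difference of Mep1a was 0.019 with median scaling and 0.037 on slide 2, that of Enpep 0.12 on slide 1 and 0.10 on slide 3, that of Vil1 0.45 on slide 2, and those of Anpep, Dpp4 and Mep1b -0.0081, -0.084 and -0.26 on slide 3. With the Hox levels in the model, Mep1a was at 0.011 with 75th percentile scaling, 0.11 with median scaling and 0.013 with the slide block, and Enpep at 0.0045 with median scaling, 0.0077 with plain subtraction, 0.0071 with an offset of 10 and 0.016 with the slide block. The Hoxb13 slope of Vil1 was -0.0058 with the slide block, -0.0090 without diet and -0.022 with Hoxb6 in the model, and that of Anpep 0.00052 without diet. Leaving out 1 array gave Enpep -0.12 to 0.048 by diet, and Enpep -0.10 to 0.22 and Mep1a -0.24 to 0.21 with the Hox levels in the model. It gave Vil1 -0.034 to 0.049 on Hoxb13, and Anpep -0.0095 to 0.035, Mep1a -0.017 to 0.12 and Vil1 -0.14 to 0.027 on Hoxb6. None of these values passed the threshold, and the cause of the changes was not tested.

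No pairing by replicate number was seen: the correlations of same-numbered arrays ran from -0.11 to 0.40, and 2 of 6 normal protein arrays were closest to their own number. The diet means but not the Hox levels were removed beforehand, so these correlations cannot exclude a pairing. With the replicate block the Hoxb13 slopes of Dpp4 and Mep1b were 0.34 (limma adjusted p = 0.086) and 0.40 (adjusted p = 0.12), and the diet comparison called 0 genes. Precision is limited by 6 arrays per diet, and Slc15a1, Slc6a19 and Anpep lay at or near background. Enpep was dim, at 24 to 97 intensity units above the negative controls.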
